A study of Mus musculus with 6 samples.

Results

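The acetyl-CoA and long-chain acyl-CoA synthetases were followed in the cortical bone of aged mice. The set held 9 genes, Acss1, Acss2, Acss3, Acsl1, Acsl3, Acsl4, Acsl5, Acsl6 and Acsf2, which were found by their symbols among the 32000 genes of the deposited table, and all 9 passed the filter on low counts with 19831 genes in all. They were selected on the difference between the diets seen in these same libraries, so their own values are a description and nothing is read from a test of them. The samples came from male C57BL/6J mice at an age of 18 months, 12 of them spent on a control diet (CD, replicates 1, 2 and 4) or on a high-fat diet (HFD, replicates 2, 3 and 4). Each group had 3 libraries of bulk mRNA sequencing. The labels name the control feed a chewing diet, call the tissue cortical bone and do not say whether each library was a separate animal, so any spread between libraries may be technical.

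Before a fatty acid can be burned, stored or built into a membrane it must be joined to coenzyme A, and this step is made by acyl-CoA synthetases at the cost of ATP. The ACSS enzymes act on the shortest acids: ACSS1 makes acetyl-CoA from acetate inside mitochondria, ACSS2 does so in the cytosol and nucleus, and ACSS3 is a mitochondrial enzyme that prefers propionate. The ACSL enzymes act on long-chain acids, and ACSL1 is the main form of fat, heart and skeletal muscle, ACSL3 sits on the endoplasmic reticulum and on growing lipid droplets, ACSL4 prefers arachidonate, ACSL5 is found on the endoplasmic reticulum and mitochondria, and ACSL6 is best known from brain, where it favours docosahexaenoate. ACSF2 belongs to a separate branch of the same superfamily, is mitochondrial and acts on acids of medium length.

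The promoters of Acss1, Acss2, Acsl1 and Acsl3 are shown because these were the genes whose diet groups did not overlap on at least 1 scale. Each is the RefSeq window of 300 bases, 250 before and 50 after the annotated start, in GRCm38.p6, and is written 5′ to 3′ on the strand of the gene with motif matches in capitals. Capitals mark GC boxes (GGGCGG, or CCGCCC on the other strand), CCAAT boxes (CCAAT or ATTGG) and the core of the interferon-stimulated element (GAAANNGAA or TTCNNTTTC).
Acss1, chr2:150668191-150668490, minus strand: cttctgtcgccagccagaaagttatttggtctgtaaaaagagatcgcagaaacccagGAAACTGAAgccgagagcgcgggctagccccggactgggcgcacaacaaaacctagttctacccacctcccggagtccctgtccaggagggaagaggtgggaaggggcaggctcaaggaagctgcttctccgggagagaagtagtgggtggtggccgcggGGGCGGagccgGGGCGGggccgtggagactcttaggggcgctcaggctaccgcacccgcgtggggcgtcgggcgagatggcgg
Acss2, chr2:155517793-155518092, plus strand: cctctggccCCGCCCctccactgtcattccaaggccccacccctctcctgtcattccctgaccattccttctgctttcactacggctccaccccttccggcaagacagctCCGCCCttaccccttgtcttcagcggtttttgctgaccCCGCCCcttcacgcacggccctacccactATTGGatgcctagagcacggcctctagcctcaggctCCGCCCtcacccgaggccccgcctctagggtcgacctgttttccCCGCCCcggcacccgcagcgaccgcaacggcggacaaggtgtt
Acsl1, chr8:46470787-46471086, plus strand: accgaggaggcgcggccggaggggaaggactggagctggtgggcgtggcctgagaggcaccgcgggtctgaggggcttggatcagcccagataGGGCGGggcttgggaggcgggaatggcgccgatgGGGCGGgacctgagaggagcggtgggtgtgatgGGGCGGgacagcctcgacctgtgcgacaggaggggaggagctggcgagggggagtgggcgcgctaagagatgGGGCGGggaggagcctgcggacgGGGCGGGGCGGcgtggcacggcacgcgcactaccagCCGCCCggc
Acsl3, chr1:78657575-78657874, plus strand: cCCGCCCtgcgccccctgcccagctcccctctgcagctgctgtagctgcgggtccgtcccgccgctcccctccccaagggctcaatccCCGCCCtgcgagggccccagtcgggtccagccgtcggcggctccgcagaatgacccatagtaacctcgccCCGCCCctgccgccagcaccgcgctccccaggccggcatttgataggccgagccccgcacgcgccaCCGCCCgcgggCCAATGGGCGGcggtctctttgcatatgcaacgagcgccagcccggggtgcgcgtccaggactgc

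All 4 windows were rich in G and C, with 64.3% in Acss1, 65.0% in Acss2, 74.0% in Acsl1 and 74.0% in Acsl3, beside a median of 52.7% over 32851 promoter windows of the same length. The GC box was found 2 times in Acss1, 5 times in Acss2, 7 times in Acsl1, where a pair of matches shares a base, and 5 times in Acsl3, and 35.7% of all windows held at least 1. Among these 4 windows the CCAAT box occurred 1 time each in Acss2 and Acsl3 and was held by 37.4% of all windows. The interferon core was found 1 time in Acss1 and 1 time in Acsf2, with a share of 8.56% of all windows. RefSeq lists a further start of Acsl1 inside the gene, with 50.0% G and C, no GC box and a single match to the sterol element core (TCACNCCAC or GTGGNGTGA; 1.24% of all windows). Over both strands, none of the 11 windows matched for 8 of the 9 genes held an E-box (CACGTG; 7.15%) or a TATA box (TATAAA; 13.6%), and the nuclear receptor half-site (AGGTCA or TGACCT; 16.3%) occurred only in the most upstream window of Acsl6, 2 times. These matches are letters in a window and were not tested against the expression values.

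The libraries differed in ways that touch these genes. Total counts were 54.5 M to 61.6 M (mega-counts) per library, mitochondrially encoded genes took 15.7% to 39.3% of them, and the TMM factor, which corrects for the make-up of a library, ran from 0.640 in CD 1 to 1.28 in HFD 3. Levels are therefore given on 2 scales, the deposited FPKM, which corrects counts for length and total count only, and TMM-scaled CPM (counts relative to the scaled library total). Osteoblast and osteocyte markers were present in all 6 libraries, but the 14 osteoblast genes made up 0.507% of all counts in CD 1, 2.64% in CD 2 and 8.07% in CD 4, while HFD 2 had 0.496%, HFD 3 had 0.234% and HFD 4 had 0.747%. The 20 skeletal muscle genes took 8.11%, 3.48% and 2.19% against 5.54%, 1.15% and 3.91% in the same order. Of 25 genes of the intestinal epithelium, 15 were at 0 in CD 1 and 14 in CD 2 but none in the other 4 libraries, where their summed level was 201 to 258 CPM, so a comparison of diets among libraries that hold them rests on CD 4 alone.

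Acsl1, Acsl5 and Acss1 were the abundant members in this tissue, and Acss3 was scarcely expressed. Mean FPKM over the 6 libraries was 13.6 for Acsl1, 13.1 for Acsl5 and 11.3 for Acss1, followed by 4.10 for Acsl4, 3.86 for Acsf2 and 3.30 for Acsl3, then 1.58 for Acss2, 0.943 for Acsl6 and 0.227 for Acss3. Each gene was compared with the next in this order by an exact two-sided sign-flip permutation test on the log2 ratio of FPKM within a library, over 6 libraries and 8 pairs. None of the 8 steps passed after Benjamini-Hochberg adjustment. The smallest p this test allows is 0.03125, and a lone step at that p could not pass over 8 pairs. The order was also taken from these same values, so nothing is read from the missing calls. Acss1 stood above Acsl4 in 6 of 6 libraries, by 1.13 ± 0.93 (SD, n = 6) on the log2 scale (exact permutation p = 0.03125, adjusted 0.125). This gap was not even over the diets. In CD 1 and CD 4 these genes were nearly level, with 3.27 against 3.21 FPKM and 3.76 against 3.24 FPKM. In HFD 2, HFD 3 and HFD 4 they had 24.3 against 4.14, 16.3 against 5.58 and 11.2 against 4.12 FPKM. Acsl6 stood above Acss3 in 6 of 6 libraries, by 2.20 ± 0.88 (SD, n = 6; exact permutation p = 0.03125, adjusted 0.125). Acsl1 and Acsl5 traded places, each leading the other in 3 of 6 libraries, as did Acsl4 and Acsf2 and then Acsf2 and Acsl3. This order is over both diets together. Within CD the mean of Acsl3, 4.08 FPKM, lay above those of Acsl4 and Acsf2, 3.59 and 3.26 FPKM, whereas within HFD it lay below them, at 2.52 against 4.61 and 4.46 FPKM. Acss1 held rank 5 of the 9 genes in CD 4 and rank 2 in every HFD library.

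**Figure D1:**
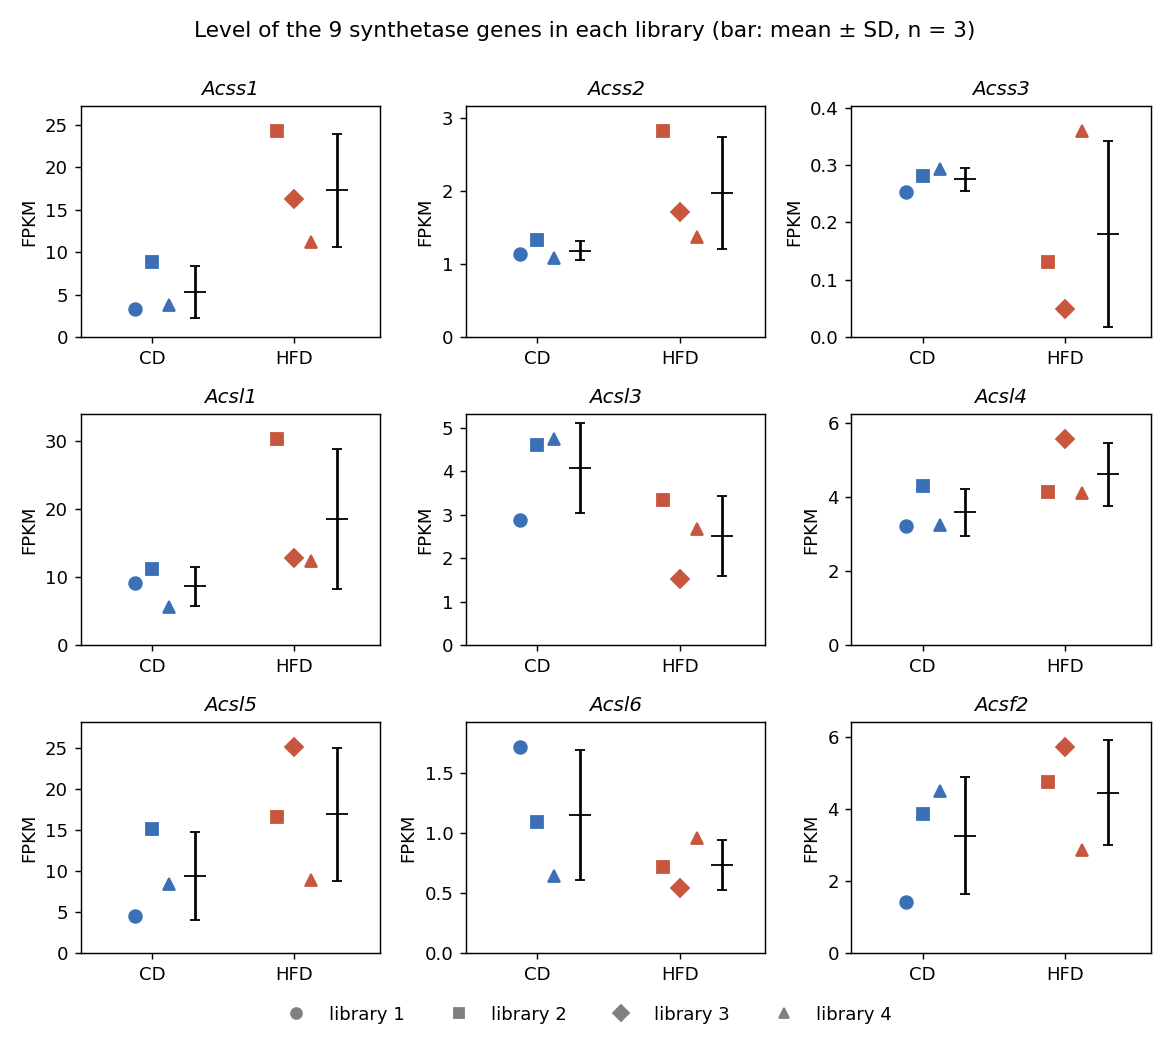
FPKM (vertical axis, from 0) of each of the 9 genes in the CD and HFD libraries. Each point is a library, its shape gives the replicate number, and the black bar is the group mean ± SD (n = 3). For Acss1, Acss2 and Acsl1 every HFD point lies above every CD point, and for Acss3 the single HFD 4 library lies apart from the other HFD libraries.

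Acss1, the mitochondrial acetate enzyme, stood higher in every HFD library than in any CD library. Its FPKM in CD 1, CD 2 and CD 4 was 3.27, 8.78 and 3.76, whereas HFD 2, HFD 3 and HFD 4 had 24.3, 16.3 and 11.2. TMM-scaled levels were 24.1, 33.3 and 18.9 CPM against 91.2, 60.4 and 62.9 CPM in the same order. The groups did not overlap on either scale, and the lowest HFD library held more than the highest CD library on both. The means were 25.4 ± 7.30 CPM (SD, n = 3) in CD and 71.5 ± 17.1 CPM (SD, n = 3) in HFD, a difference of 1.49 ± 0.29 (SE) on the log2 scale, and on the FPKM scale the ratio of means was 3.28. Across 19 alternative settings this difference stayed between 1.28, without HFD 2, and 1.92, with the intestinal genes as a covariate. With CD 4 as the only control it was 1.92. In bulk samples more cells that express a gene and more RNA per cell cannot be told apart, and this holds for every value below.

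Acss2, the cytosolic and nuclear acetate enzyme, showed a smaller difference that depended on the scale. Its FPKM was 1.14, 1.32 and 1.08 in CD 1, CD 2 and CD 4, and 2.83, 1.72 and 1.36 in HFD 2, HFD 3 and HFD 4. On that scale the groups were apart, although HFD 4 lay only just above CD 2. After TMM scaling the levels were 20.7, 12.4 and 13.4 CPM against 26.2, 15.7 and 18.9 CPM, and CD 1 then lay above HFD 3 and HFD 4. The log2 difference was 0.39 ± 0.30 (SE), falling to 0.16 without HFD 2 and reaching 0.67 without CD 1. Within each library Acss1 exceeded Acss2 in FPKM, by 2.86, 6.64 and 3.49 times in the CD libraries and by 8.60, 9.48 and 8.20 times in the HFD libraries, a ratio that TMM scaling cannot alter. The HFD ratios all lay above the CD ratios.

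Acss3, the propionate enzyme, was the scarcest member. Its counts were 129, 128 and 150 in CD 1, CD 2 and CD 4, and 59, 24 and 178 in HFD 2, HFD 3 and HFD 4. HFD 2 and HFD 3 were low, while HFD 4 was the highest of all 6 libraries, so the groups overlapped. The log2 difference of -0.71 ± 0.81 (SE) was smaller than its error and was set by single libraries, since it was -2.12 without HFD 4, -0.22 without HFD 3 and -0.41 without HFD 2. Of its 100-base transcript stretches, 32.9% were shared in reverse with Ppfia2, a gene on the other strand that had 993 counts in CD 4 and 211 to 505 in the other libraries. As it is not settled that counting used the strand, reads from the stretches that this pair shares cannot be told apart.

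Acsl1, the long-chain enzyme of fat and muscle, was among the most abundant members and was highest in HFD 2. Its FPKM was 9.07, 11.2 and 5.62 in CD 1, CD 2 and CD 4 and 30.4, 12.9 and 12.3 in HFD 2, HFD 3 and HFD 4. These groups did not overlap, but CD 2 and HFD 4 were close. TMM-scaled levels were 169, 108 and 71.7 CPM against 289, 121 and 176 CPM, and here CD 1 exceeded HFD 3. The means were 116 ± 49.4 CPM (SD, n = 3) and 195 ± 85.7 CPM (SD, n = 3), with a log2 difference of 0.75 ± 0.43 (SE). HFD 2 decided much of its size, since the value was 0.35 without that library, whereas it was 1.15 without CD 1. With the skeletal muscle genes as a covariate it was 0.83, and with CD 4 as the only control it was 1.45.

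Acsl3, the enzyme of the endoplasmic reticulum and lipid droplets, was the member that stood lower in every HFD library after TMM scaling. Its levels were 22.5, 18.4 and 25.2 CPM in CD 1, CD 2 and CD 4 and 13.3, 5.97 and 16.0 CPM in HFD 2, HFD 3 and HFD 4. The means were 22.0 ± 3.41 CPM (SD, n = 3) and 11.7 ± 5.17 CPM (SD, n = 3), a log2 difference of -0.91 ± 0.37 (SE) that was -0.59 without HFD 3. On the FPKM scale, with 2.89, 4.60 and 4.75 against 3.35, 1.52 and 2.68, CD 1 fell below HFD 2 and the groups overlapped. The lower value in HFD had the same sign in all 19 alternatives, from -1.20 to -0.54. All 14 osteoblast genes also had a fitted difference below 0, with a median of -2.24. DESeq2 called 8 of them, beside 1.65% of all its tested genes, and edgeR called 0. The share of counts that they took overlapped between the diets, CD 1 being below HFD 4. All 9 osteoclast genes lay below 0 with a median of -2.39, and each was lower in every HFD library than in every CD library after TMM scaling, as 10.2% of all tested genes were. DESeq2 called 5 of the 9, beside 1.65% of all its tested genes, and edgeR called 0. Before TMM scaling their summed level overlapped between the diets, with 914 CPM in CD 1 below 931 CPM in HFD 2 and 990 CPM in HFD 3. It was highest in CD 4, at 6386 CPM. The part of osteoblasts and osteoclasts in the values of Acsl3 was not tested. Of the transcript stretches of Acsl3, 2.43% were shared on the same strand with Utp14b, which had 64 to 252 counts.

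Acsl4, the arachidonate enzyme, was the steadiest member. Its levels were 30.9, 21.4 and 21.3 CPM in CD and 20.3, 27.1 and 30.3 CPM in HFD, so that the groups overlapped throughout and the log2 difference was 0.08 ± 0.25 (SE). This sign was lost without CD 2 (-0.01) and without HFD 4 (-0.05). The highest library held 1.52 times the lowest in CPM and 1.74 times in FPKM, beside 4.82 and 7.45 times for Acss1.

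Acsl5, of the endoplasmic reticulum and mitochondria, varied among the libraries of each diet, with means of 52.4 ± 14.2 CPM (SD, n = 3) in CD and 80.8 ± 26.0 CPM (SD, n = 3) in HFD. Its FPKM was 4.57, 15.1 and 8.41 in CD 1, CD 2 and CD 4, and 16.6, 25.1 and 8.96 in HFD 2, HFD 3 and HFD 4. CD 2 lay above HFD 4, so the groups overlapped, as they did on the TMM scale with 39.6, 67.7 and 49.8 CPM against 73.4, 110 and 59.4 CPM. The log2 difference was 0.63 ± 0.31 (SE), and it was 0.34 without HFD 3. The summed level of 11 T and NK cell genes was 15.6, 114 and 33.5 CPM for CD 1, CD 2 and CD 4 and 106, 153 and 51.1 CPM for HFD 2, HFD 3 and HFD 4, and Acsl5 before TMM scaling was 25.4, 83.7 and 46.9 against 92.7, 140 and 49.1 CPM. Both were highest in HFD 3 and lowest in CD 1, and the 13 B cell and plasma cell genes, with 111 CPM in CD 1 and 1262 CPM in HFD 3, had the same extremes. So had the 16 monocyte and macrophage genes, with 973 CPM in CD 1 and 4701 CPM in HFD 3. The part of these cells in the Acsl5 values was not tested. Acsl5 overlaps Zdhhc6 on the other strand, which was counted 1154 to 2444 times, and 1.98% of its transcript stretches were shared with that gene in reverse.

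Acsl6 was highest in a single CD library. Its levels were 30.3, 9.99 and 7.77 CPM in CD 1, CD 2 and CD 4 and 6.45, 4.85 and 12.9 CPM in HFD 2, HFD 3 and HFD 4. CD 1 was high, and the other 5 libraries overlapped. The log2 difference was -0.99 ± 0.60 (SE), but it was -0.11 without CD 1, -1.50 without HFD 4 and 0.06 with CD 4 as the only control. CD 1 also had the largest share of skeletal muscle genes and HFD 3 the smallest, and HFD 2, the library with the next largest share, had 6.45 CPM of Acsl6. With the muscle genes as a covariate the difference was -0.69. The part of muscle in the values of Acsl6 was not tested beyond that fit. An antisense gene, Gm12224, was counted 1027 times in CD 1 and 191 to 559 times elsewhere, and shared 0.019% of the transcript stretches of Acsl6.

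Acsf2, the mitochondrial enzyme for acids of medium length, did not separate the diets. Its levels were 8.71, 12.2 and 18.8 CPM in CD 1, CD 2 and CD 4 and 14.8, 17.7 and 13.4 CPM in HFD 2, HFD 3 and HFD 4. Both the lowest and the highest library were CD. The log2 difference of 0.21 ± 0.32 (SE) turned to -0.30 with CD 4 as the only control and was 0.61 without CD 4. Of its transcript stretches, 19.0% were shared with the processed pseudogene Gm5540, which was counted only 4 to 32 times. Chad, a cartilage matrix gene that lies within an intron of Acsf2 on the other strand, was counted 637 to 10179 times but overlaps no exon of it.

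Counted over the 9 genes, 6 had a fitted difference above 0 and 3 below it. Their median was 0.21 on the log2 scale beside -0.03 over all tested genes, of which 47.5% lay above 0. With the FPKM values in limma the median of all genes moved to 0.19, with 6 of 8 tested members above 0 and a member median of 0.41. After TMM scaling 1 member had every HFD library above every CD library (Acss1), beside 4.97% of all tested genes, and 1 had every HFD library below (Acsl3), beside 10.2%. On the FPKM scale 3 members were above (Acss1, Acss2 and Acsl1), beside 4.05% of the tested genes, and 0 were below, beside 4.17%. No member passed the edgeR quasi-likelihood test at an adjusted p of 0.05, which called 0 of all 19831 genes (0%). At an unadjusted p under 0.05 it called 1 member higher (Acss1), as for 2.46% of all genes, and 1 lower (Acsl3), as for 7.2% of all genes. DESeq2 called 1 member, Acss1, beside 1.65% of its tested genes, and limma called 0. Nothing is read from these counts, since the same contrast chose the genes.

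**Figure D2:**
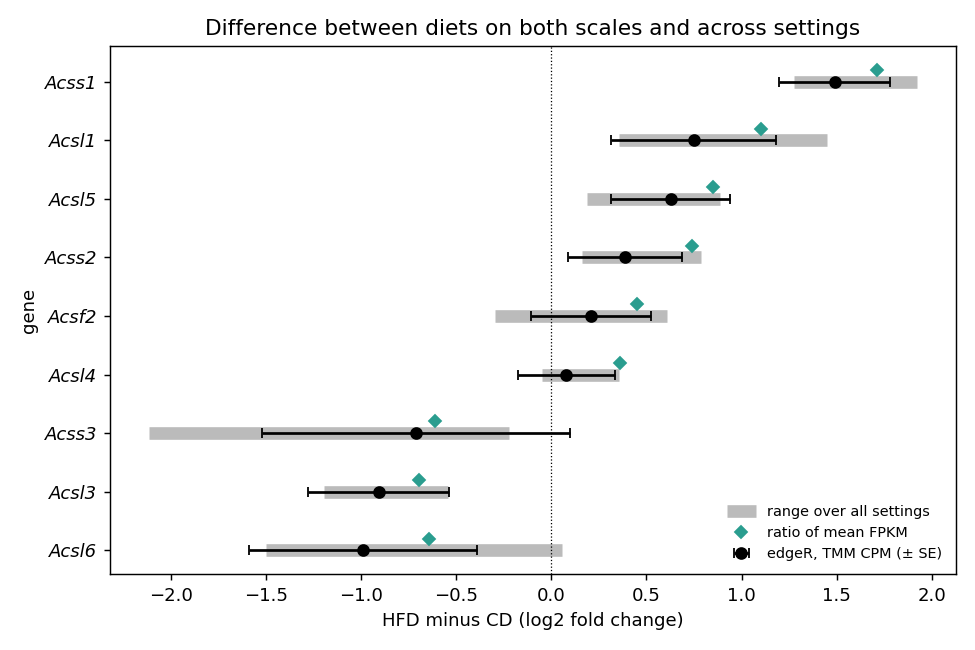
Difference between diets (horizontal axis, HFD minus CD, log2) for each of the 9 genes. Black points are edgeR values ± SE, green diamonds the log2 ratio of mean FPKM, and grey bars the range over the alternative settings. Acss1 lies at 1.49 with a range of 1.28 to 1.92, and the ranges of Acsl4, Acsl6 and Acsf2 cross 0.

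The make-up of the family is described too, but the same contrast chose the genes, so its differences between the diets are not a separate result. A share within a library does not depend on how libraries are scaled. Acss1 supplied 11.9%, 17.4% and 11.6% of the summed FPKM of the 9 genes in CD 1, CD 2 and CD 4, and 27.9%, 23.5% and 24.9% in HFD 2, HFD 3 and HFD 4. Among the 9 genes it had rank 3, 3 and 5 in the CD libraries and rank 2 in all 3 HFD libraries. Acsl3 supplied 10.5%, 9.09% and 14.7% in CD and 3.84%, 2.19% and 5.99% in HFD. Both shares kept the diets apart, in opposite directions. Shares of a fixed sum are tied, so a higher share of Acss1 lowers the others. The FPKM of Acsl3 itself overlapped, with 2.89 in CD 1 below 3.35 in HFD 2. Acsl1 exceeded Acsl3 by 3.14, 2.43 and 1.18 times in the CD libraries and by 9.07, 8.46 and 4.60 times in the HFD libraries, without overlap. The ratio of Acsl5 to Acsl3 was 1.58, 3.29 and 1.77 in CD and 4.96, 16.5 and 3.34 in HFD, so that CD 2 and HFD 4 almost met. The ratio of Acsl4 to Acsl3 was 1.11, 0.938 and 0.681 in CD and 1.24, 3.67 and 1.53 in HFD. All of these ratios are taken over Acsl3, so its lower values enter each of them. The ratio of Acsl5 to Acsl1, in contrast, was 0.504, 1.35 and 1.50 in CD and 0.547, 1.96 and 0.727 in HFD and overlapped. That of Acsl1 to Acsl4 also overlapped, with 2.83, 2.59 and 1.73 in CD and 7.34, 2.30 and 3.00 in HFD. For Acsl1 to Acss1 it was 2.78, 1.27 and 1.49 in CD and 1.25, 0.789 and 1.10 in HFD, where CD 2 and HFD 2 almost met. The summed FPKM of the 3 ACSS genes was 4.66, 10.4 and 5.13 in CD and 27.3, 18.1 and 12.9 in HFD, and that of the 5 ACSL genes was 21.5, 36.3 and 22.7 against 55.2, 45.6 and 29.1. The ACSL sums overlapped, with CD 2 above HFD 4, and the ACSS sums did not. Most of each ACSS sum was Acss1, with 3.27 FPKM in CD 1 and 24.3 FPKM in HFD 2.

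**Figure D3:**
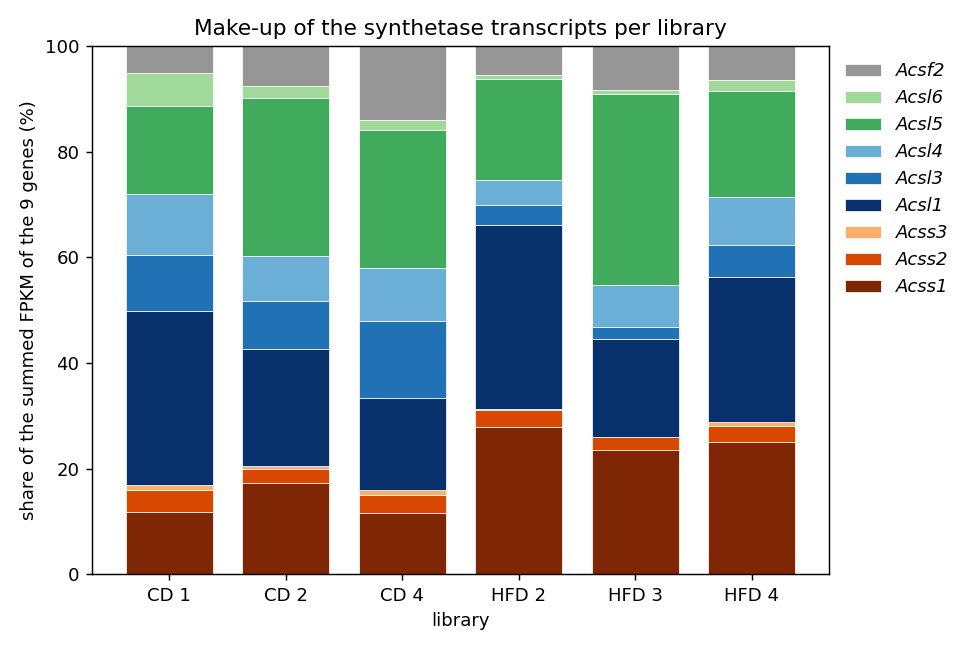
Share of each gene in the summed FPKM of the 9 synthetase genes (vertical axis, percent) in each library. Acss1 takes 11.6% to 17.4% in the CD libraries and 23.5% to 27.9% in the HFD libraries, while Acsl3 takes 9.09% to 14.7% and 2.19% to 5.99%.

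The genes whose pattern was most like each member were found by the smallest root mean square difference of centred log2 CPM over the 6 libraries, among 11198 candidates. For Acss1 these were Oas1a (0.204), Phf11b (0.230) and Irf7 (0.244), beside a root mean square of 0.810 for the pattern of Acss1 itself. Oas1a, an interferon-induced sensor of double-stranded RNA, had 5.18, 7.99 and 5.20 CPM in CD and 22.4, 11.6 and 11.5 CPM in HFD. Irf7, a transcription factor of the interferon response, had 17.8, 27.3 and 14.3 CPM in CD and 45.2, 42.0 and 37.3 CPM in HFD. For Acsl1 the nearest were Cpt2 (0.120), which rebuilds acyl-CoA inside mitochondria, Twf2 (0.164) and Etfb (0.184), which passes on electrons from fatty acid oxidation. Cpt2 had 40.0, 22.0 and 18.5 CPM in CD and 58.9, 27.3 and 37.9 CPM in HFD, with HFD 2 highest and CD 4 lowest as for Acsl1. Those of Acsl3 were Dact1 (0.0826), Egfr (0.0835) and Pakap (0.130), and those of Acss2 were Ndufb3 (0.0772), a subunit of respiratory complex I, Agpat3 (0.0779) and Bcat2 (0.104), which degrades branched-chain amino acids. Acsl5 was most like Csk (0.0694), a kinase that restrains Src family kinases, then Tor4a (0.0848) and Atp13a2 (0.0862). Acsl6 was most like Parm1 (0.193), Arrdc2 (0.234) and Pcx (0.234), the carboxylase of pyruvate, all of which were highest in CD 1. Acss3 was most like Col8a2 (0.166), Ptn (0.241) and Kcna5 (0.243), Acsl4 like Spopl (0.0807), Zfp958 (0.0855) and Ippk (0.0902), and Acsf2 like Oaf (0.0864), Mov10 (0.104) and Serp1 (0.122). The difference between the diets is part of these patterns, so the values are descriptions.

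The rest of the acyl-CoA pathway gave no gene past the edgeR test at an adjusted p of 0.05 in either direction. Of 14 other acyl-CoA synthetases that were tested, 6 had a fitted difference above 0 and 8 below, with a median of -0.15 that was -0.01 without CD 4 and -0.04 without HFD 4. The most abundant were the fatty acid transport proteins Slc27a1, with a difference of 0.59 ± 0.51 (SE), and Slc27a4, with -0.18 ± 0.22 (SE). Slc27a3 had 6.12, 8.03 and 8.73 CPM in CD and 2.46, 2.83 and 4.47 CPM in HFD, a difference of -1.23 ± 0.34 (SE; edgeR adjusted p = 0.466). Its groups did not overlap, as for the 10.2% of tested genes with every HFD library below. Acsm5, a synthetase for acids of medium length, had the smallest p among those above 0, at 2.39 ± 0.96 (SE; edgeR adjusted p = 0.493) and with at most 1.70 CPM in any library. Among 22 further genes of acetyl-CoA supply 10 lay above 0 and 12 below, with a median of -0.07. That median was -0.24 without HFD 2, 0.35 without CD 1 and 0.51 with the replicate block. Pdk4, the kinase that shuts off pyruvate dehydrogenase, was the most abundant and varied from 177 CPM in HFD 3 to 1445 CPM in HFD 2, both HFD libraries, with a difference of 0.93 ± 0.82 (SE). Pdha1, a subunit of that dehydrogenase, differed by -0.09 ± 0.54 (SE). Pdp2, a phosphatase of the dehydrogenase, differed by 0.89 ± 0.38 (SE; edgeR adjusted p = 0.518).

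Fatty acid oxidation genes lay mostly above 0 and fatty acid synthesis genes mostly below, without a call in either list and with medians that depended on single libraries and on the scale. Of 30 oxidation genes 28 had a fitted difference above 0, with a median of 0.49. Of these, 1 had an unadjusted p under 0.05, beside 2.46% of all tested genes. The median was 0.11 without HFD 2, 0.29 without CD 2, 0.78 without CD 1 and 1.03 with the replicate block. Acadl, a dehydrogenase of the first step, had 146, 59.1 and 76.9 CPM in CD and 266, 96.7 and 194 CPM in HFD, a difference of 0.98 ± 0.48 (SE; edgeR adjusted p = 0.558) with overlapping groups. Of the 20 skeletal muscle genes 17 lay below 0 and 3 above. Myh2, a myosin of fast fibres, differed by 1.95 ± 1.10 (SE) and Mb, the myoglobin gene, by 0.74 ± 0.92 (SE). Myh7, the myosin of slow fibres, had 130, 5 and 10319 counts in CD and 16063, 1112 and 5708 in HFD. All of these were named after their values were seen. With the muscle list as a covariate the median of the oxidation genes was 0.55, and the part of muscle in them was not tested beyond that fit. Etfb differed by 0.60 ± 0.36 (SE), Pparg, the nuclear receptor of fat storage, by 0.65 ± 0.25 (SE; edgeR adjusted p = 0.478) and Ppard by -0.13 ± 0.26 (SE). Of 19 genes of synthesis and desaturation 15 lay below 0, with a median of -0.35. Of these, Fads1, Acaca, Fasn, Thrsp and Scd1 had an unadjusted edgeR p under 0.05, 5 in all, beside 7.2% of all tested genes. The median was -0.06 on log2(FPKM + 1), where that of all tested genes was 0.19 beside -0.03 in edgeR. It was -0.16 with CD 4 as the only control, -0.18 with the intestinal genes as a covariate and -0.23 without CD 1. Scd1, the desaturase that makes oleate, had 153, 164 and 101 CPM in CD and 66.5, 66.0 and 82.6 CPM in HFD. Its difference was -0.96 ± 0.27 (SE; edgeR adjusted p = 0.466), without overlap, as for the 10.2% of tested genes with every HFD library below. Fasn, the fatty acid synthase, had 31.1, 48.5 and 40.1 CPM against 19.0, 24.9 and 21.5 CPM, a difference of -0.87 ± 0.24 (SE; edgeR adjusted p = 0.466). Tecr, of the elongation cycle, differed by -0.43 ± 0.35 (SE) and Elovl7, an elongase, by 0.90 ± 0.43 (SE; edgeR adjusted p = 0.555).

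The enzymes that use or undo acyl-CoA held the gene with the smallest p of all these lists. Acot1, a cytosolic thioesterase that splits long-chain acyl-CoA and so reverses the reaction of the ACSL enzymes, had 3.38, 2.30 and 1.81 CPM in CD and 29.8, 11.1 and 13.4 CPM in HFD. Its groups were far apart, and 4.97% of all tested genes had every HFD library above every CD library. The difference was 2.86 ± 0.47 (SE), which the edgeR test did not call (adjusted p = 0.466) and DESeq2 did (adjusted p = 9.98e-06). Its mitochondrial relative Acot2 differed by 1.96 ± 0.57 (SE; DESeq2 adjusted p = 0.0396) and Acot4 by 2.00 ± 0.68 (SE; DESeq2 adjusted p = 0.143). These 3 genes are close copies of each other, so reads may be split between them. Over 14 thioesterases and binding proteins 7 lay above 0 and 7 below, with a median of -0.07. That median was -0.16 without CD 2 and 0.23 without CD 1. It was 0.39 with the intestinal genes as a covariate, 0.40 with CD 4 as the only control and 0.44 without CD 1 and HFD 4. Dbi, the acyl-CoA binding protein, differed by 0.14 ± 0.31 (SE), Acot13 by -0.33 ± 0.56 (SE) and Acot12, with the smallest p among those below 0, by -1.81 ± 1.01 (SE; edgeR adjusted p = 0.598).

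Lipid building, arachidonate and sterol genes were mixed. In glycerolipid synthesis 9 of 14 genes lay above 0, with a median of 0.26 that was 0.03 without HFD 2, 0.10 without HFD 3 and 0.03 with the replicate block. Dgat2, which adds the last acyl chain of triglyceride, had 15.1, 17.4 and 8.40 CPM in CD and 58.5, 17.6 and 22.9 CPM in HFD, a difference of 1.28 ± 0.50 (SE; edgeR adjusted p = 0.488), and HFD 3 lay only just above CD 2. Lpin3, a phosphatidate phosphatase, had 8.03, 5.35 and 12.3 CPM against 1.64, 1.16 and 4.43 CPM, a difference of -1.83 ± 0.58 (SE; edgeR adjusted p = 0.466). The abundant Dgat1 and Agpat1 differed by 0.06 ± 0.36 (SE) and -0.32 ± 0.21 (SE). Of 16 genes that handle arachidonate, the preferred substrate of ACSL4, 12 lay above 0, with a median of 0.20 and none at an unadjusted p under 0.05. Leaving out CD 1 or HFD 3 lowered that median to 0.05, leaving out CD 2 raised it to 0.42, and the replicate block gave -0.07. Gpx4, which reduces lipid peroxides, differed by 0.19 ± 0.31 (SE), Alox5ap by 0.49 ± 0.45 (SE), Alox12, the platelet lipoxygenase, by 1.58 ± 0.69 (SE; edgeR adjusted p = 0.524) and Pla2g6 by -0.52 ± 0.26 (SE; edgeR adjusted p = 0.571). Of 20 genes of sterol synthesis 14 lay below 0, with a median of -0.18 that was -0.09 without CD 4, -0.10 without CD 1 and -0.10 without HFD 2. On log2(FPKM + 1) it was 0.08, beside 0.19 for all tested genes on that scale. Srebf2, their main regulator, differed by -0.29 ± 0.27 (SE), Pmvk by -0.29 ± 0.29 (SE), Mvd by 0.41 ± 0.29 (SE) and Insig1 by -0.54 ± 0.31 (SE).

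**Figure D4:**
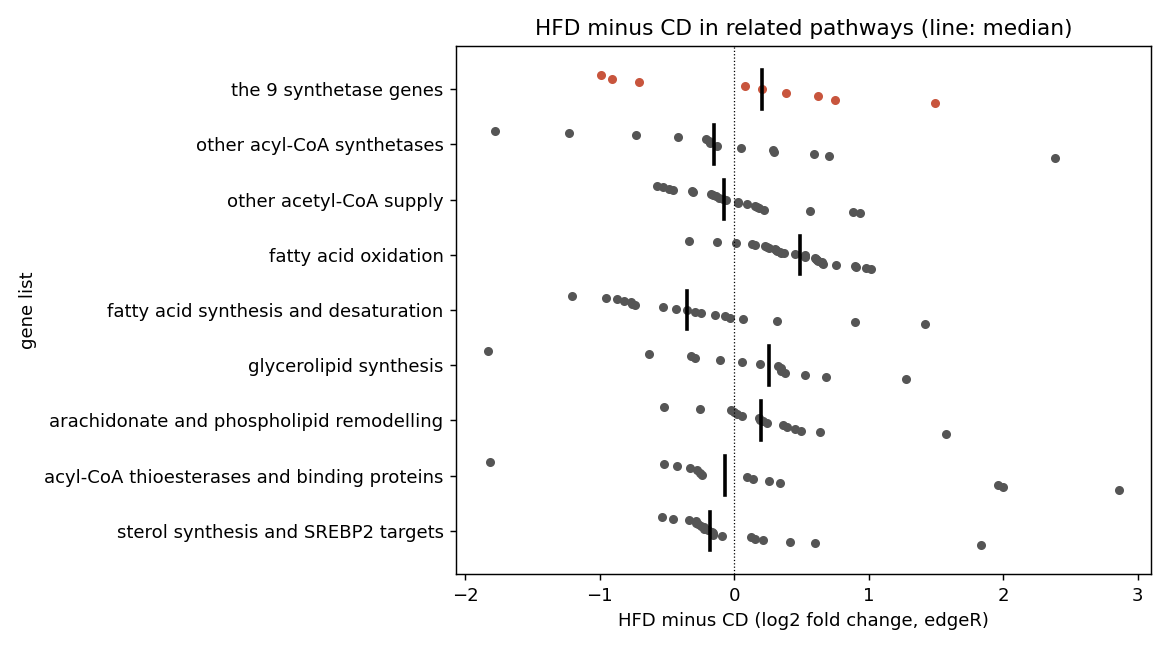
Fitted difference between diets (horizontal axis, HFD minus CD, log2, edgeR) for the 9 synthetase genes and 8 lists of related genes. Each point is a tested gene and each black line the median of its list. Medians run from -0.35 for fatty acid synthesis to 0.49 for fatty acid oxidation, and the rightmost point is Acot1 at 2.86.

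The 9 members were set beside cell type markers because bone samples carry muscle and marrow. Monocyte and macrophage genes summed to 973, 3647 and 1398 CPM in CD 1, CD 2 and CD 4 and to 4550, 4701 and 1607 CPM in HFD 2, HFD 3 and HFD 4 and overlapped between the diets. Lyz2, the lysozyme gene of these cells, supplied 47.8% to 63.6% of that sum. Of the 16 genes 12 had a fitted difference above 0, with a median of 0.71, and 5 of these had an unadjusted p under 0.05, against 2.46% of all tested genes. DESeq2 called 4 of the 16, beside 1.65% of all its tested genes, and edgeR called 0. In all, 4 were higher in every HFD library than in every CD library, as 4.97% of all tested genes were. Adipocyte genes summed to 1660, 871 and 1136 CPM against 1419, 823 and 1223 CPM and also overlapped. Of 13 that were tested, 5 had a fitted difference above 0 and 8 below, with a median of -0.03. Much of that sum was Car3, the carbonic anhydrase of fat and muscle, at 8.69% in HFD 2 and 68.0% in CD 1. Without Car3, the adipocyte genes summed to 532, 567 and 433 CPM in the CD libraries and to 1295, 599 and 646 CPM in the HFD libraries. The groups then did not overlap, but CD 2 and HFD 3 almost met. Car3 was left out after seeing the data, and Lpl stayed in the sum, so nothing is read from this gap. HFD 2 was then highest, as it was for Acsl1, and its Lpl had 41175 counts against 6032 to 15021 in the other libraries. Cfd went the other way, with 654 to 2045 counts in CD and 304 to 574 in HFD. Erythroid genes took 0.867%, 2.67% and 0.663% of the counts against 1.69%, 5.12% and 1.30%. With the erythroid genes as a covariate the log2 difference was 1.48 for Acss1, 0.80 for Acsl1, -0.72 for Acsl3 and 0.44 for Acsl5. The part of monocytes, macrophages and adipocytes in the values of the members was not tested.

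**Figure D5:**
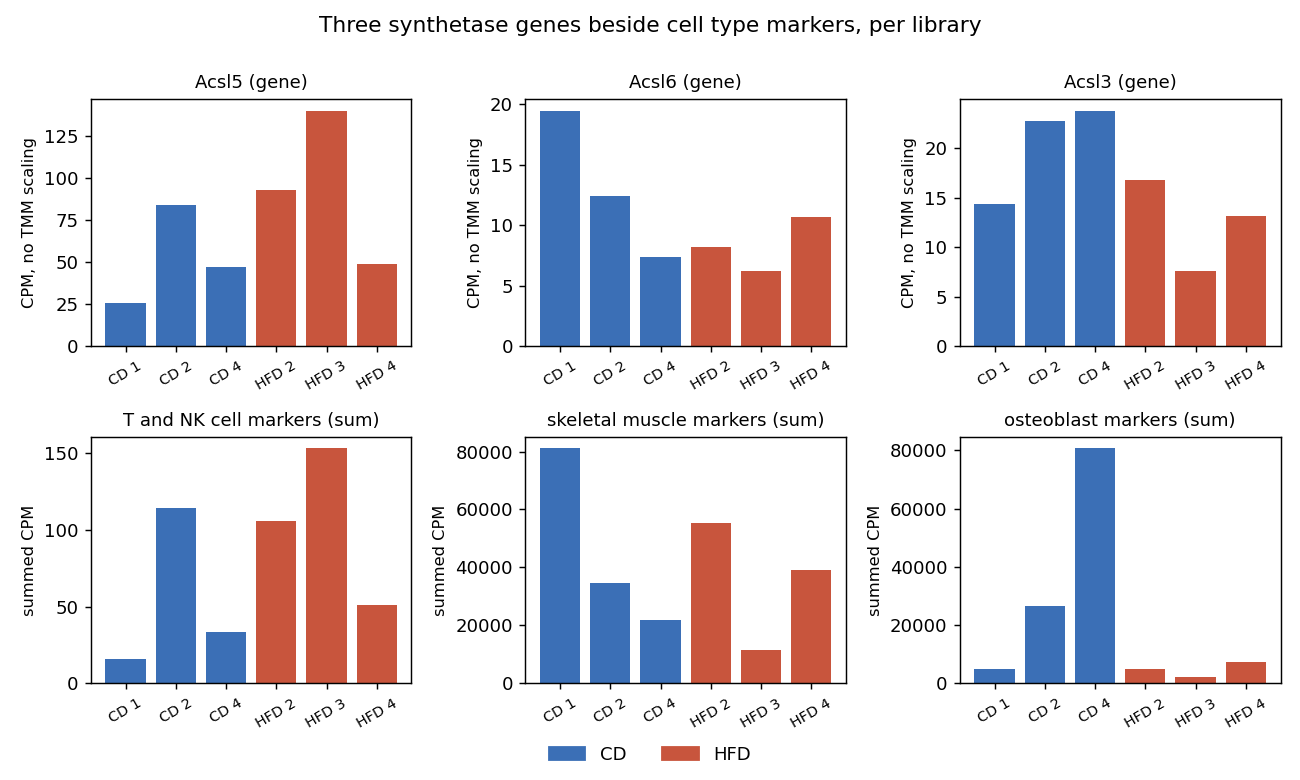
Acsl5, Acsl6 and Acsl3 (upper row, CPM without TMM scaling) beside the summed CPM of T and NK cell, skeletal muscle and osteoblast markers (lower row) in each library. Acsl5 and the T and NK cell genes share their highest library, HFD 3, and their lowest, CD 1, Acsl6 and the muscle genes share their highest, CD 1, and Acsl3 and the osteoblast genes share their highest, CD 4, and their lowest, HFD 3.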

How the data were processed

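The authors deposited 1 table with gene counts and FPKM values for each of the 6 libraries. The FPKM of a gene was its count times a constant of the gene and one of the library, within 0.441% at percentile 98 over 12388 genes. Per the labels, poly(A) RNA was made into strand-marked libraries with molecular identifiers. Of the tools in the submitters' processing notes, HISAT2 2.0.4 aligns reads, UMI-tools handles molecular identifiers and StringTie 1.3.4d estimates levels (cutadapt 1.9, edgeR and DESeq2 are also listed), but no roles are given. The study's methods name STAR and featureCounts instead, so the making of the counts, their strand and their collapse to molecules are not settled. Reads from stretches that a gene shares with an antisense or overlapping gene therefore cannot be told apart. Parts of the study speak of bone particles or marrow cells where the labels say cortical bone.

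Counts were tested with edgeR 4.0.16 (quasi-likelihood test after TMM scaling; filterByExpr, minimum count 10; p-values adjusted over all 19831 genes by Benjamini-Hochberg, threshold 0.05) in R 4.3.3, after the script had been tested on simulated data. DESeq2 1.42.0, limma 3.58.1 on log2(FPKM + 1) and log2(FPKM + 0.1) for 14940 genes, other scalings, left-out libraries, marker lists as covariates and a replicate block were alternatives. At 3 against 3, exact permutation of the libraries gives no p below 0.1. The members and gene lists were chosen with earlier results of these data known. Named are the 9 members, the 3 genes most like each (mean FPKM of at least 1), and for each list the 2 most abundant genes and the one with the smallest p in each direction; Acot2, Acot4 and the genes at an unadjusted p under 0.05 were added after their values were seen. A gene that this rule names is not reported here. Transcript stretches are those of GENCODE M21 and promoters those of RefSeq, and Acss3 had no promoter entry.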

Additional observations from a re-analysis of the deposited data

How the results depend on the processing

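The edgeR test called 0 genes higher and 0 lower under HFD with all 6 libraries, at 1916 genes with an unadjusted p under 0.05, and the tool changed this count. DESeq2 called 111 genes higher and 231 lower, 2 of them in the pathway lists (Acot1 and Acot2) and 1 a member (Acss1). On log2(FPKM + 1) limma called 9 genes higher and 1 lower, and on log2(FPKM + 0.1) it called 7 higher. Leaving out each library in turn gave 0 to 23 genes higher and 0 to 1 lower, with the 23 and the 1 both without CD 4. The causes were not tested. No member was called in any alternative other than DESeq2. Acss1, Acss2, Acsl1, Acsl3 and Acsl5 had the sign of their fitted difference in all 19 alternatives and Acss3 in all 17 that gave it a value. Acsl4 and Acsl6 had it in 17 of 19 and Acsf2 in 15 of 19. Leaving out CD 1 and HFD 4 together, the libraries with the most mitochondrial counts, was chosen after seeing the data and gave 1.56 for Acss1, 1.22 for Acsl1, -1.17 for Acsl3 and -1.90 for Acss3. CD 4 alone against HFD assumes that this lone control varies as the HFD libraries do. The samples share replicate numbers 2 and 4 only as names, with correlations of deviations of -0.16 and 0.18. With the replicate block 0 genes were called, and the difference was 1.59 for Acss1, 0.79 for Acss2, 0.19 for Acsl5 and 0.05 for Acsl6. CD 1 and HFD 3 are alone in their replicate numbers, so this block compares only CD 2 and CD 4 with HFD 2 and HFD 4. The low counts of Acss3 limit what its values show.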
